A study of Homo sapiens with 10 samples.

Results

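Heat shock chaperones help proteins fold and refold, and HSF1 is the transcription factor that switches on their genes when unfolded proteins accumulate. The 10 genes followed here are those of 7 chaperones of the cytosol (HSPA1A, HSPA8, HSPH1, DNAJB1, DNAJA1, HSPB1 and HSP90AA1), 2 of the mitochondrial matrix (HSPD1 and HSPE1) and the regulator HSF1. Each gene was read through the probe sets that the platform annotation gives to it alone, 20 in all, and its brightest probe set over the 10 arrays was taken as its signal. This left 8 of the 10 genes measured, among 19775 genes on the array. HSPA1A and HSPA8 had no probe set of their own, because 3 probe sets list HSPA1A beside its near-identical neighbour HSPA1B and 4 list HSPA8 beside small nucleolar RNA genes. The measured genes were 5 of the 7 cytosolic chaperones, 2 of the 2 mitochondrial ones and HSF1.

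The cells were MM.1S, a human multiple myeloma line, a cancer of antibody-secreting plasma cells. They were infected with lentivirus that carried a short hairpin RNA, and RNA was taken 48 h later. The 10 arrays form 5 groups of 2, namely shDNMT1#2 and shDNMT1#1 (hairpins against DNMT1, which copies DNA methylation onto newly made strands), shHDAC3#2 and shHDAC3#1 (hairpins against HDAC3, the histone deacetylase that works within the co-repressors NCoR and SMRT) and shLuc (a hairpin against luciferase, as control). The submitters name shLuc as control of shHDAC3, and no source used here says whether the DNMT1 arrays were processed in the same run. All groups are 1 cell line. Nothing in the labels says that replicates were separate cultures, so a p-value here reflects array-to-array spread that may be technical.

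Chaperones of the HSP70 family (HSPA1A, HSPA8) hold unfolded proteins in cycles of ATP binding that J-domain proteins (DNAJB1, DNAJA1) start and nucleotide exchange factors such as HSPH1 end, while HSP90 (HSP90AA1) completes the folding of kinases and hormone receptors and the small heat shock protein HSPB1 keeps unfolding proteins from clumping. HSPD1 and HSPE1 form the chaperonin of the mitochondrial matrix, a barrel and its lid, and both are encoded by nuclear genes that lie head to head. HSF1 is held inactive by chaperones in unstressed cells and binds heat shock elements, inverted repeats of the unit GAA. Plasma cells make large amounts of antibody, and whether the chaperones named here take part in that was not tested.

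The promoters below are those of the genes whose signals moved most, or in opposite directions, in the results that follow. They come from RefSeq on GRCh38.p14, hold 250 bases before and 50 after an annotated start site, and are written 5′ to 3′ on the gene's strand. Capitals mark pairs of heat shock units, which are GAANNTTC or TTCNNGAA; both forms read the same on both strands, and overlapping matches were kept. HSPE1 and HSPD1 are shown because they share a region and moved apart, HSPH1 and DNAJB1 for their change with the DNMT1 hairpins, and HSPB1 for its change with the HDAC3 hairpins.
HSPE1, chr2:197500129-197500428, plus strand: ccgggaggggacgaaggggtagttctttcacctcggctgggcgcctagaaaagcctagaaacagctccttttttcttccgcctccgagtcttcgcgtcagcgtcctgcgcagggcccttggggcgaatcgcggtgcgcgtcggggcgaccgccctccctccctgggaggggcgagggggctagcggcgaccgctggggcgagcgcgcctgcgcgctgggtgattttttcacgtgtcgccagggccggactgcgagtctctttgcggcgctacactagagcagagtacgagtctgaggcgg
HSPD1, chr2:197499791-197500090, minus strand: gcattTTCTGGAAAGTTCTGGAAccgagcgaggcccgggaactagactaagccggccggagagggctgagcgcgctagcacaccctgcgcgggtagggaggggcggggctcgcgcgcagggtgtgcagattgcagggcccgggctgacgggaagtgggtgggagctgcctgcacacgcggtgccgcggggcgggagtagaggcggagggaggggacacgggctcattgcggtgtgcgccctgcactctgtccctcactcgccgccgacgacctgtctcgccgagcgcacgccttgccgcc
HSPH1, chr13:31162339-31162638, minus strand: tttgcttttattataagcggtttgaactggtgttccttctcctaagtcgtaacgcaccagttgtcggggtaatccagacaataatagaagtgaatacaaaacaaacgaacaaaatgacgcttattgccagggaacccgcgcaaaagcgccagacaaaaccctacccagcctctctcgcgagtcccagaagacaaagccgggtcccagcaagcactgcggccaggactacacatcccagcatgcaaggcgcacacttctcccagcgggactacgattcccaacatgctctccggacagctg
DNAJB1, chr19:14518348-14518647, minus strand: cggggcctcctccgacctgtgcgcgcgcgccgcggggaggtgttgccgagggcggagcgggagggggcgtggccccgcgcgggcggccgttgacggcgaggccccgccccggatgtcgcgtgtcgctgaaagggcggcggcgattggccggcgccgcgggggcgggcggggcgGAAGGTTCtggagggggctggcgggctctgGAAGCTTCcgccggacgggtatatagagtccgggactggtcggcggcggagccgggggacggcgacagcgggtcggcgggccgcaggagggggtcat
HSPB1, chr7:76302423-76302722, plus strand: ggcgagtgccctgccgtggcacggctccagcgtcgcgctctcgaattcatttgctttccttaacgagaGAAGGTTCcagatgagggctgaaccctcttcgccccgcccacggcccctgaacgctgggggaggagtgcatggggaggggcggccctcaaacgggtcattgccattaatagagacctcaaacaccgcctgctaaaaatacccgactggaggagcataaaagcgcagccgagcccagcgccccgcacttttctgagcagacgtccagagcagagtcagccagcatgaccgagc

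The HSPD1 window carried 3 overlapping pairs, at bases -245, -240 and -235 from the start site. Read as 3 units in a row (GAANNTTCNNGAA or TTCNNGAANNTTC), it belongs to the 0.49% of 35116 RefSeq windows of this length that hold such a run, while 13.49% hold at least 1 pair. The start site of HSPE1 lies 539 bases away on the other strand, and the most distal of these matches is 294 bases from it, outside the printed HSPE1 window, which had no match. A further HSPD1 window, at chr2:197500225-197500524, overlaps the HSPE1 window by 204 bases and had no match either. DNAJB1 had pairs at bases -77 and -47, HSPB1 had 1 at base -182, and the HSPH1 window had none. Of the 9 genes searched, 7 had a pair in at least 1 window and 4 had a run of 3 units (DNAJA1, HSP90AA1, HSPA8 and HSPD1). HSF1 was not searched. A match describes letters only, and a window without one says nothing about the binding of HSF1.

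The hairpins lowered their targets. DNMT1 signal was 19.1% of shLuc in the DNMT1 knockdown and 52.7% in the HDAC3 knockdown, and HDAC3 signal was 44.2% of shLuc in the HDAC3 knockdown and 77.7% in the DNMT1 knockdown. The 8 plasma cell markers had mean log2 signals from 6.21 (CD38) to 12.9 (JCHAIN). The 3 B cell markers stood at 3.06 (MS4A1), 7.61 (PAX5) and 8.01 (CD22), the 4 T cell markers at 4.25 (CD2) to 6.66 (CD3D), the 3 monocyte markers at 3.94 (LYZ) to 6.73 (CD14) and the 6 stromal and epithelial markers at 3.96 (EPCAM) to 8.55 (COL1A1). Brightness differs between probe sets, so these levels do not rank the genes, and markers of other cell types were not all near background. Some array-wide measures moved with the groups. ACTB signal from 3′ probe sets minus that from 5′ ones, which grows as RNA degrades, was 1.00 in shHDAC3#1, 0.711 to 0.737 in the other knockdown groups and 0.727 in shLuc. The SD of all log2 signals on an array averaged 1.85 to 1.91 in the knockdown groups and 1.94 in shLuc.

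In the DNMT1 knockdown, the cytosolic chaperone genes HSPH1, DNAJB1, DNAJA1 and HSP90AA1 fell, while the mitochondrial co-chaperonin gene HSPE1 rose. In the HDAC3 knockdown, the cytosolic genes HSPH1 and HSPB1 and the mitochondrial gene HSPD1 fell, and HSPE1 rose. Called genes are those with an adjusted p under 0.05 in limma over all 19775 genes, with each knockdown taken as the mean of its 2 hairpins against shLuc. In the DNMT1 knockdown 5 of the 8 measured genes were called, against 20.2% of all genes; 4 were lower (13.5% of all genes) and 1 was higher (6.66%). In the HDAC3 knockdown 4 of 8 were called, against 19.2% of all genes. Of these, 3 were lower (15.3%) and 1 was higher (3.96%). Dim genes lower the shares over all genes. When only the 14763 genes with a mean of at least 5 were tested, 6 of 8 were called in each knockdown. The share of genes called was then 27.4% in the DNMT1 and 27.8% in the HDAC3 knockdown. The median log2 change of the 8 genes was -0.22 in the DNMT1 knockdown and -0.24 in the HDAC3 knockdown. Over all genes it was 0.07 and 0.05. The size depended on the scaling. After a further quantile normalization the medians of the 8 genes were -0.07 and -0.10, beside 0.05 and 0.05 over all genes. With each array centred on its median they were -0.27 and -0.27, beside 0.01 and 0.02. Both knockdowns were set against the same 2 shLuc arrays. The genes were chosen with earlier results of these data known. Their counts beside the shares of all genes, here and below, are therefore a description and not independent support. In RNA from whole cultures, fewer cells that express a gene and less RNA per cell cannot be told apart.

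**Figure D1:**
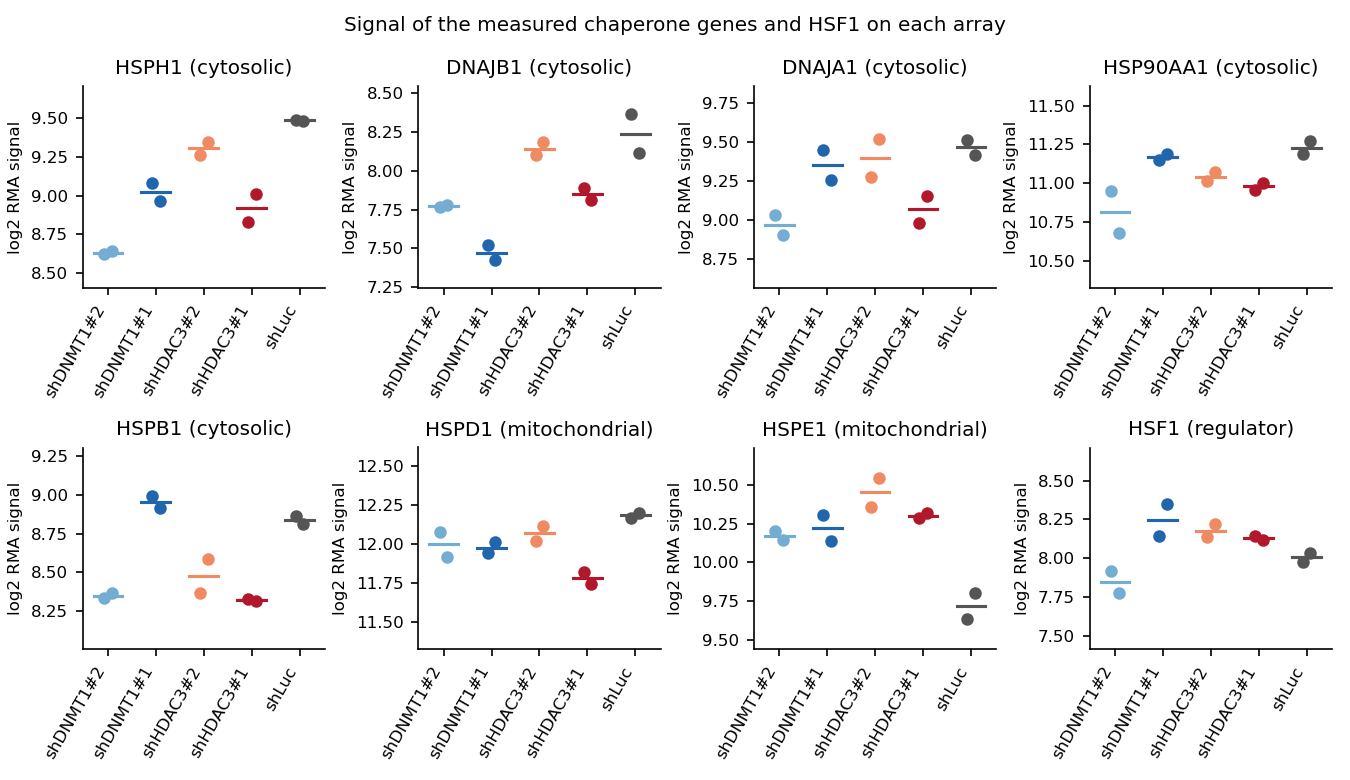
Log2 signal (RMA) of the 8 measured genes on each of the 10 arrays; points are arrays, the short lines are group means of 2 arrays, and every panel spans the same range of log2 units. HSPE1 stood between 10.1 and 10.5 on the 8 knockdown arrays and at 9.64 and 9.80 on the shLuc arrays, whereas HSPH1 was below both shLuc arrays on all 8.

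HSPH1 encodes HSP110, the exchange factor that frees proteins from HSP70. Its log2 signal was 8.62 and 8.64 with shDNMT1#2, 9.08 and 8.96 with shDNMT1#1, 9.26 and 9.35 with shHDAC3#2 and 8.83 and 9.01 with shHDAC3#1, against 9.49 and 9.48 with shLuc. All 8 knockdown arrays lay below both shLuc arrays, with shDNMT1#2 the lowest group and shHDAC3#2 the one nearest to shLuc. The log2 change was -0.66 ± 0.08 (SE, limma) in the DNMT1 knockdown, or 63.3% of shLuc (adjusted p = 3.7e-06), and -0.37 ± 0.08 in the HDAC3 knockdown, or 77.2% (adjusted p = 0.0016). Among the single hairpins the fall passed the test with shDNMT1#2 (-0.85), shDNMT1#1 (-0.46) and shHDAC3#1 (-0.57), and with shHDAC3#2 the change was -0.18 (adjusted p = 0.27). Of its other probe sets, the 1 with a mean of 8.14 changed by -0.65 and -0.40 in the DNMT1 and HDAC3 knockdowns, and the 1 with a mean of 4.74 by -0.13 and -0.01.

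DNAJB1 encodes HSP40, a J-domain partner of HSP70 and a well-known HSF1 target. Its signal was 7.77 and 7.78 with shDNMT1#2, 7.52 and 7.43 with shDNMT1#1, 8.10 and 8.19 with shHDAC3#2 and 7.89 and 7.81 with shHDAC3#1, against 8.36 and 8.11 with shLuc. The 4 DNMT1 arrays were the lowest of the 10, and shDNMT1#1 was the lowest group, whereas shHDAC3#2 overlapped shLuc. The change was -0.62 ± 0.09 in the DNMT1 knockdown, 65.3% of shLuc (adjusted p = 2.9e-05), and -0.24 ± 0.09 in the HDAC3 knockdown (adjusted p = 0.060). With single hairpins it fell with shDNMT1#2 (-0.46), shDNMT1#1 (-0.76) and shHDAC3#1 (-0.39).

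DNAJA1, a J-domain partner of HSPA8, showed a smaller and less even change. Its signal was 9.03 and 8.90 with shDNMT1#2, 9.45 and 9.25 with shDNMT1#1, 9.28 and 9.52 with shHDAC3#2 and 8.98 and 9.15 with shHDAC3#1, against 9.52 and 9.42 with shLuc. One hairpin of each target, shDNMT1#2 and shHDAC3#1, lay below shLuc, and the other overlapped it. The change was -0.31 ± 0.09 in the DNMT1 knockdown (adjusted p = 0.019) and -0.24 ± 0.09 in the HDAC3 knockdown (adjusted p = 0.071). The second probe set of DNAJA1, at a mean of 8.08, changed by -0.25 and by 0.16 in these comparisons, so that the probe sets differed in sign in the HDAC3 knockdown.

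HSP90AA1, the stress-inducible form of cytosolic HSP90, read 10.95 and 10.68 with shDNMT1#2, 11.15 and 11.19 with shDNMT1#1, 11.01 and 11.07 with shHDAC3#2 and 10.96 and 11.00 with shHDAC3#1, against 11.19 and 11.27 with shLuc. All knockdown arrays were below both shLuc arrays, shDNMT1#1 only just. It fell by 0.24 ± 0.08 in the DNMT1 knockdown (adjusted p = 0.037), and the change in the HDAC3 knockdown was -0.22 ± 0.08 (adjusted p = 0.055). Among the single hairpins the fall passed the test with shDNMT1#2 (-0.41) and shHDAC3#1 (-0.25). The change was -0.06 with shDNMT1#1 (adjusted p = 0.73) and -0.19 with shHDAC3#2 (adjusted p = 0.25). All 4 of its probe sets changed in the same direction in both knockdowns. They changed by -0.33 to -0.11 in the DNMT1 knockdown and by -0.27 to -0.09 in the HDAC3 knockdown. With shDNMT1#1 alone they changed by -0.14 to 0.02. The constitutive form, HSP90AB1, changed by 0.00 ± 0.07 in the DNMT1 knockdown (adjusted p = 0.99) and by -0.14 ± 0.07 in the HDAC3 knockdown (adjusted p = 0.18).

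HSPB1, the small heat shock protein HSP27, was lower with 3 of the 4 hairpins. Its signal was 8.34 and 8.37 with shDNMT1#2, 8.99 and 8.92 with shDNMT1#1, 8.37 and 8.59 with shHDAC3#2 and 8.33 and 8.32 with shHDAC3#1, against 8.87 and 8.81 with shLuc. The groups split cleanly, with shDNMT1#1 above shLuc and the other 3 knockdown groups below it. HSPB1 fell by 0.44 ± 0.08 in the HDAC3 knockdown, to 73.8% of shLuc (adjusted p = 0.00049), and changed by -0.18 ± 0.08 in the DNMT1 knockdown (adjusted p = 0.11), whose hairpins had -0.49 (shDNMT1#2) and 0.12 (shDNMT1#1).

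**Figure D2:**
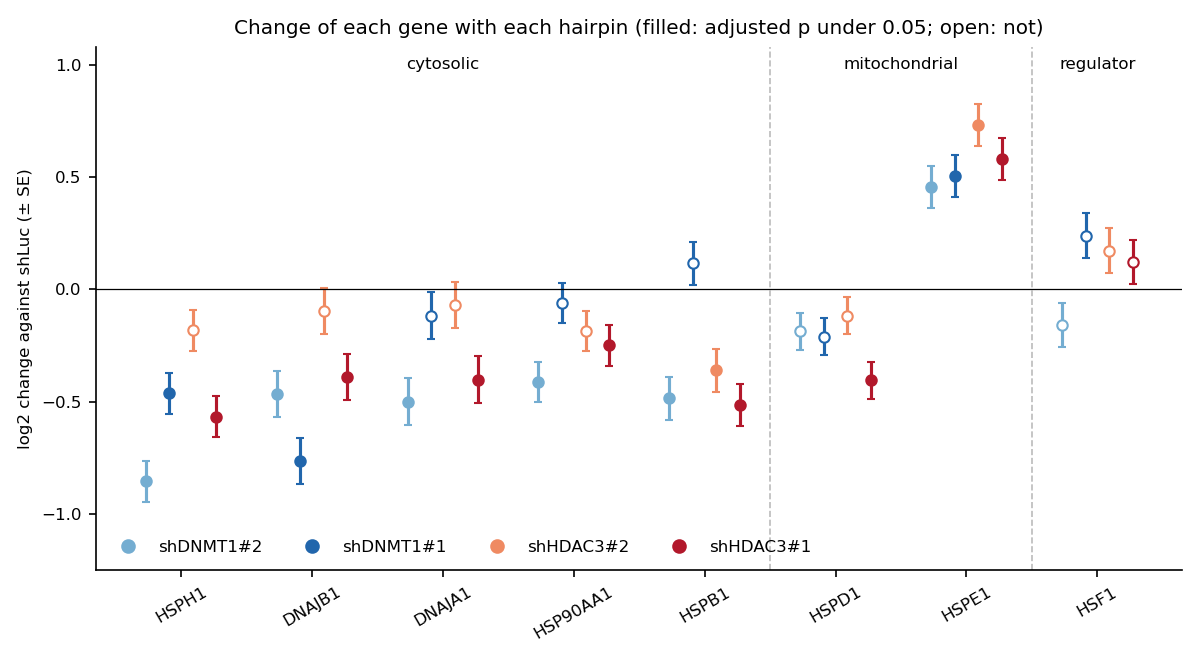
Log2 change of each gene against shLuc for each hairpin, with limma's SE as bars; filled points have an adjusted p under 0.05 over all genes. HSPE1 was filled and above 0 with all 4 hairpins (0.45, 0.50, 0.73 and 0.58 in the order of the legend), and all 5 cytosolic genes were filled and below 0 with shDNMT1#2 and with shHDAC3#1.

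HSPE1 encodes HSP10, the lid of the mitochondrial chaperonin. Its signal was 10.20 and 10.15 with shDNMT1#2, 10.31 and 10.14 with shDNMT1#1, 10.36 and 10.54 with shHDAC3#2 and 10.29 and 10.32 with shHDAC3#1, against 9.64 and 9.80 with shLuc. Every knockdown array lay above both shLuc arrays, and shHDAC3#2 was the highest group. The signal rose by 0.48 ± 0.08 in the DNMT1 knockdown, to 139.4% of shLuc (adjusted p = 0.00017), and by 0.66 ± 0.08 in the HDAC3 knockdown, to 157.7% (adjusted p = 4.1e-06). The rise passed the test with each hairpin, by 0.45 (shDNMT1#2), 0.50 (shDNMT1#1), 0.73 (shHDAC3#2) and 0.58 (shHDAC3#1). HSPE1 was read by 1 probe set, of a kind whose probes can match several transcripts, and RefSeq lists 28 pseudogenes named after it and the read-through gene HSPE1-MOB4, so the gene behind this signal is uncertain to that extent.

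HSPD1 encodes HSP60, the barrel that HSPE1 closes. Its signal was 12.08 and 11.92 with shDNMT1#2, 11.94 and 12.01 with shDNMT1#1, 12.02 and 12.12 with shHDAC3#2 and 11.82 and 11.74 with shHDAC3#1, against 12.17 and 12.20 with shLuc. All knockdown arrays were below both shLuc arrays, and shHDAC3#1 stood apart as the lowest group. HSPD1 fell by 0.26 ± 0.07 in the HDAC3 knockdown (adjusted p = 0.013), and its change in the DNMT1 knockdown was -0.20 ± 0.07 (adjusted p = 0.055). Of the single hairpins the fall passed the test with shHDAC3#1 (-0.41), and the other 3 had changes between -0.21 and -0.12. The second bright probe set of HSPD1 (mean 11.7) changed by -0.14 in the DNMT1 knockdown and by -0.24 in the HDAC3 knockdown. Its 3 dimmer ones, with means of 2.24 to 6.61, changed in the other direction. They changed by 0.04 to 0.18 in the DNMT1 knockdown and by 0.02 to 0.17 in the HDAC3 knockdown. RefSeq lists 22 pseudogenes named after HSPD1.

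**Figure D3:**
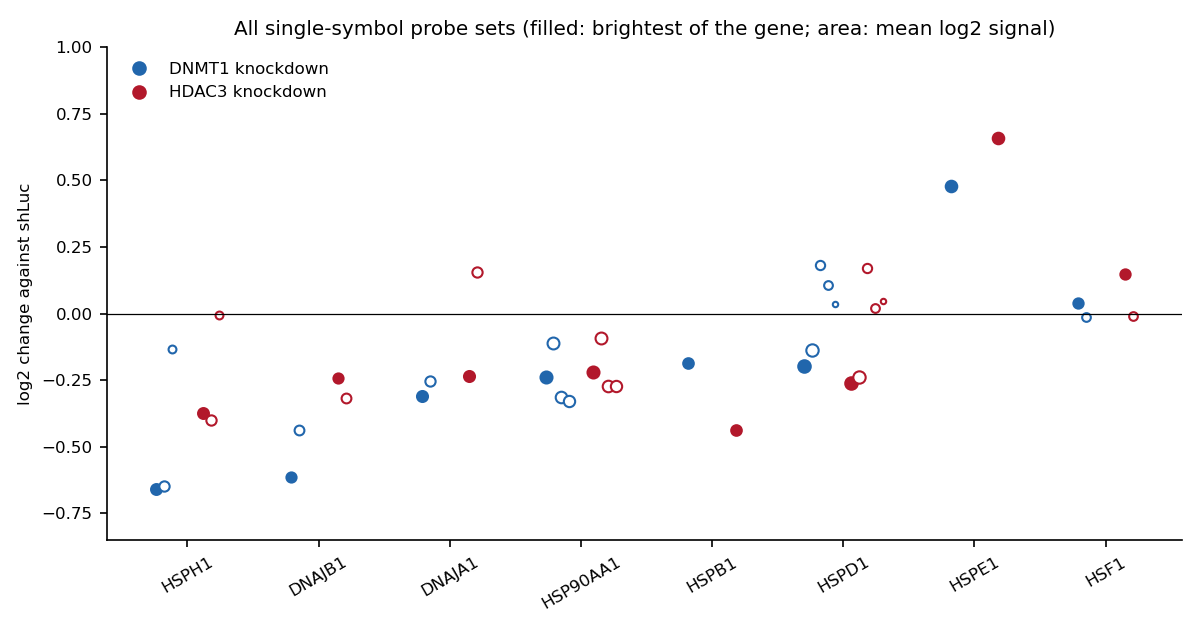
Log2 change against shLuc of all 20 single-symbol probe sets; filled points are the brightest probe set of a gene, and the area of a point grows with its mean log2 signal. The bright probe sets of HSPH1, DNAJB1, HSP90AA1 and HSPD1 lay below 0 in both knockdowns, and the dimmer ones of HSPD1 lay above it.

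Cytosolic and mitochondrial chaperone genes were then set side by side as the mean change of the 5 cytosolic and of the 2 mitochondrial genes. The cytosolic mean was -0.54 with shDNMT1#2, -0.26 with shDNMT1#1, -0.18 with shHDAC3#2 and -0.42 with shHDAC3#1, relative to shLuc, and the mitochondrial mean was 0.13, 0.15, 0.31 and 0.09 in the same order. The mitochondrial mean was thus above the cytosolic one with every hairpin, by 0.54 in the DNMT1 knockdown and 0.50 in the HDAC3 knockdown, and the pooled SD of this difference between arrays of a group was 0.06. It does not describe both mitochondrial genes, since HSPE1 and HSPD1 moved apart. The change of HSPE1 exceeded that of HSPD1 by 0.64 with shDNMT1#2, 0.71 with shDNMT1#1, 0.85 with shHDAC3#2 and 0.99 with shHDAC3#1. HSPD1 alone changed by -0.41 to -0.12 over the hairpins, which was inside the range of the 5 cytosolic genes for 3 hairpins and above it for shDNMT1#2. These means are given without a test.

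**Figure D4:**
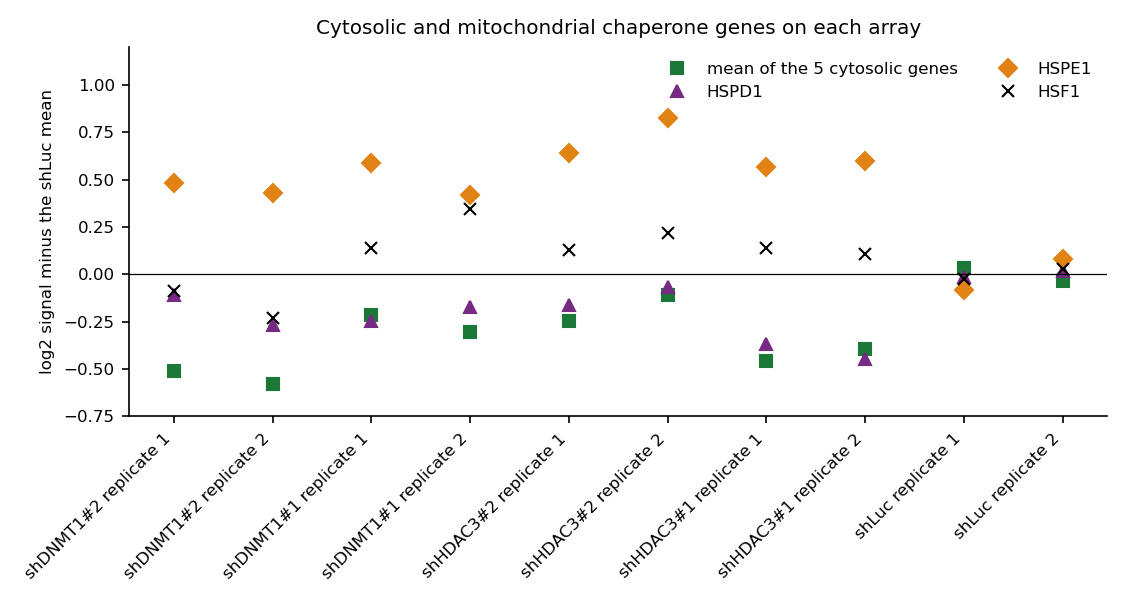
Log2 signal minus the shLuc mean on each array, for the mean of the 5 cytosolic genes and for HSPD1, HSPE1 and HSF1. On the 8 knockdown arrays HSPE1 lay between 0.42 and 0.83 and the cytosolic mean between -0.58 and -0.11, with HSPD1 between -0.44 and -0.07.

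HSF1 itself read 7.92 and 7.78 with shDNMT1#2, 8.14 and 8.35 with shDNMT1#1, 8.13 and 8.22 with shHDAC3#2 and 8.14 and 8.12 with shHDAC3#1, against 7.98 and 8.03 with shLuc. It was above shLuc on 6 of the 8 knockdown arrays and below it with shDNMT1#2. The change was 0.04 ± 0.09 in the DNMT1 knockdown (adjusted p = 0.76) and 0.15 ± 0.09 in the HDAC3 knockdown (adjusted p = 0.23), and no single hairpin passed the test against shLuc. After a further quantile normalization HSF1 was called in the HDAC3 knockdown, at 0.25 (adjusted p = 0.0374, alternatives 0.0374 to 1.0), and stood at 0.12 in the DNMT1 knockdown. The DNMT1 hairpins differed from each other, with shDNMT1#2 lower than shDNMT1#1 by a log2 difference of -0.40 ± 0.10 (adjusted p = 0.0099). The second probe set of HSF1, at a mean of 5.78, changed by -0.01 in both knockdowns. The array measures RNA, so it does not show the activation of HSF1, which takes place on the protein.

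Counted as groups that do not overlap, 4 of the 8 genes had all DNMT1 arrays below both shLuc arrays, against 13.9% of all genes, and 1 had them all above, against 20.2%. For the HDAC3 arrays, 4 genes lay below, against 15.8% of all genes, and 2 lay above, against 22.1%. Those above were HSPE1 in both knockdowns and HSF1 in the HDAC3 knockdown.

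The knockdowns were also compared with each other, which needs no shLuc array. HSPH1 was lower in the DNMT1 than in the HDAC3 knockdown by a log2 difference of -0.28 ± 0.06 (adjusted p = 0.0057), and DNAJB1 by -0.37 ± 0.07 (adjusted p = 0.0013), while HSPB1 was higher by 0.25 ± 0.07 (adjusted p = 0.017). These 3 of 8 stand beside 9.59% of all genes called in this comparison. For HSPE1 the difference was -0.18 ± 0.07 (adjusted p = 0.10). For HSPD1, HSP90AA1, DNAJA1 and HSF1 it lay between -0.11 and 0.06 and did not pass the test. For HSPB1 the DNMT1 hairpins (-0.60), and for HSPH1 both the DNMT1 hairpins (-0.39) and the HDAC3 hairpins (0.38), were themselves further apart than the knockdowns.

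Hairpins of 1 target often differed. Among the HDAC3 hairpins, HSPH1 (0.38), DNAJA1 (0.33) and HSPD1 (0.29) were higher with shHDAC3#2 than with shHDAC3#1, 3 of 8 genes against 12.6% of all genes. Among the DNMT1 hairpins, HSPB1 (-0.60), HSF1 (-0.40), HSPH1 (-0.39), DNAJA1 (-0.38) and HSP90AA1 (-0.35) were lower with shDNMT1#2 than with shDNMT1#1, 5 of 8 against 12% of all genes. HSPE1 did not pass this test for either target (0.15 ± 0.09 for HDAC3 and -0.05 ± 0.09 for DNMT1). Set against shLuc, 6 of 8 genes were called with shDNMT1#2 (26.8% of all genes), 3 with shDNMT1#1 (8.15%), 2 with shHDAC3#2 (10.9%) and 7 with shHDAC3#1 (24.4%). A covariate was fitted beside the 5 groups, so its slope came only from differences between the 2 arrays of a group. The ACTB difference was highest in shHDAC3#1. With it as a covariate, fewer genes of the whole array were called in the comparisons that follow, and 1 of the 8 was called for shHDAC3#1 (11.3% of all genes), 0 between the HDAC3 hairpins in limma (2 at an unadjusted p under 0.05; 4.54% of all genes) and 0 between the knockdowns (3 at an unadjusted p under 0.05; 3.68% of all genes). Between the knockdowns DNAJB1 was then at -0.37 and HSPB1 at 0.30, as far apart as without the covariate or further, and HSPH1 at -0.17. Between the HDAC3 hairpins HSPH1 was at 0.58 and DNAJA1 at 0.50, and HSPD1 at 0.12.

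These calls rest on few arrays. Without shLuc replicate 1, without shDNMT1#1 replicate 2 or without shDNMT1#2 replicate 2, 3 genes were called in the DNMT1 knockdown, with 6.9%, 16.9% and 16.7% of all genes called. Without shHDAC3#1 replicate 2, 1 gene was called between the knockdowns (6.73% of all genes); without shHDAC3#1 replicate 1 or shHDAC3#2 replicate 2, 0 were called between the HDAC3 hairpins in limma (3 and 2 at an unadjusted p under 0.05; 8.37% and 8.27% of all genes). Without shDNMT1#1 replicate 1 or replicate 2, 3 were called between the DNMT1 hairpins (9.73% and 11.4% of all genes), and without shDNMT1#2 replicate 2, 2 (7.17%). Without shLuc replicate 1, 4 were called for shHDAC3#1 (10.1% of all genes) and 1 for shHDAC3#2 (5.1%), and without shHDAC3#2 replicate 1, 1 for shHDAC3#2 (5.81%). With both hairpins of a target taken as 1 group, whose spread then holds the differences between hairpins, HSPE1 was the 1 of the 8 called in the DNMT1 knockdown (1.65% of all genes) and in the HDAC3 knockdown (1.83%). With hairpin as a random block, 0 of the 8 were called in limma in the DNMT1 knockdown (3 at an unadjusted p under 0.05; 0.157% of all genes) and 0 in the HDAC3 knockdown (2 at an unadjusted p under 0.05; 0.369%), so this setting called almost no gene on the array.

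HSPE1 was called in 21 of 22 alternatives in the DNMT1 knockdown and in 21 of 22 in the HDAC3 knockdown; the exception in both was the random block, with an adjusted p of 0.165 (alternatives 2.03e-07 to 0.165) and 0.0614 (alternatives 1.45e-08 to 0.0614). HSPH1 was called in 19 of 23 in the DNMT1 knockdown and 17 of 23 in the HDAC3 knockdown, and HSPB1 in 19 of 22 in the HDAC3 knockdown. In the DNMT1 knockdown DNAJB1 was called in 19 of 22 alternatives, DNAJA1 in 15 of 23 and HSP90AA1 in 8 of 23, and in the HDAC3 knockdown HSPD1 was called in 14 of 23. The array SD was lower in every knockdown group than in shLuc. With it as a covariate HSPE1 was the 1 of the 8 called in each knockdown, at 0.70 in the DNMT1 and 0.87 in the HDAC3 knockdown. Of all genes, 0.602% and 0.576% were called there. The slope on array SD came only from arrays within groups and was carried over to the gap between groups. These values are thus no separate check on HSPE1. After a further quantile normalization HSPE1 stood at 0.72 and 0.92, HSPH1 at -0.39 and -0.10, and DNAJA1 at -0.03 and 0.05. Of the leading probe sets 7 of 8 carry a suffix for probes that can match several transcripts. Without such probe sets HSPE1, HSPB1 and DNAJB1 were not measured, HSPD1 was read at a mean of 6.61 with changes of 0.18 and 0.17, and 0 of the 5 genes left were called in limma (1 in the DNMT1 and 0 in the HDAC3 knockdown at an unadjusted p under 0.05). Of the 17100 genes then tested, 16.6% and 14.6% were called, so a count of 0 among 5 is not a result about the members.

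Other genes of the same machinery were followed in lists, also chosen with earlier results of these data known. Their counts are set beside all genes as a description. Of all genes, 13.5% were called lower and 6.66% higher in the DNMT1 knockdown. In the HDAC3 knockdown 15.3% were called lower and 3.96% higher. Of 13 measured genes of cytosolic HSP90 and its co-chaperones, 7 fell and 1 rose in each knockdown. The medians were -0.31 in the DNMT1 and -0.28 in the HDAC3 knockdown, which were -0.10 and -0.13 after a further quantile normalization. After a further quantile normalization 5 fell and 1 rose in the DNMT1 and 5 fell and 2 rose in the HDAC3 knockdown. In that setting 21.6% and 22.3% of all genes were called in either direction. Called lower with single hairpins were 6 (shDNMT1#2), 5 (shDNMT1#1), 2 (shHDAC3#2) and 9 (shHDAC3#1). Over all genes these shares were 15.2%, 6.81%, 9.54% and 16.6%. Without probe sets that can match several transcripts 10 were measured, of which 4 fell in the DNMT1 and 2 in the HDAC3 knockdown, and CDC37 was not measured. PTGES3, a co-chaperone that holds HSP90 closed, had signals of 11.18 and 10.96 with shDNMT1#2, 10.71 and 10.86 with shDNMT1#1, 11.49 and 11.63 with shHDAC3#2 and 10.30 and 10.38 with shHDAC3#1, against 11.58 and 11.67 with shLuc. It was low with both DNMT1 hairpins and lowest with shHDAC3#1, while shHDAC3#2 overlapped shLuc; the changes were -0.70 (adjusted p = 2.1e-06) in the DNMT1 and -0.67 (adjusted p = 2.9e-06) in the HDAC3 knockdown. CDC37, which brings kinases to HSP90, rose by 0.44 in the DNMT1 and 0.45 in the HDAC3 knockdown and was above both shLuc arrays on all 8 knockdown arrays. CHORDC1, an HSP90 co-chaperone, fell by 0.59 in the DNMT1 knockdown, and SUGT1, a co-chaperone of kinetochore and immune proteins, fell by 0.61 in the HDAC3 knockdown. The probe sets of CHORDC1 and SUGT1 left without those that can match several transcripts were dimmer, with means of 2.76 and 4.22 against 7.59 and 8.53. They changed less, by -0.17 for CHORDC1 in the DNMT1 knockdown and by -0.11 for SUGT1 in the HDAC3 knockdown.

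Among 22 other genes of cytosolic HSP70, HSP110 and J-domain proteins, 3 fell and 1 rose in each knockdown, with medians of -0.07 in the DNMT1 and -0.16 in the HDAC3 knockdown, which were 0.04 and -0.02 after a further quantile normalization. These shares, 13.6% lower and 4.55% higher, were near those of all genes. With median centring 7 fell and 1 rose in the DNMT1 and 5 fell and 1 rose in the HDAC3 knockdown. In that setting 18.1% and 18.6% of all genes were called in either direction. By hairpin, 8 were called lower with shDNMT1#2, 0 with shDNMT1#1 in limma (2 at an unadjusted p under 0.05), 3 with shHDAC3#2 and 9 with shHDAC3#1. The shares of all genes called lower were 15.2%, 6.81%, 9.54% and 16.6%. STUB1, the ubiquitin ligase CHIP that marks HSP70 clients for destruction, rose by 0.59 (adjusted p = 4.8e-05) and 0.43 (adjusted p = 0.0012). Its signal was 9.21 and 9.12 with shDNMT1#2, 9.35 and 9.14 with shDNMT1#1, 9.28 and 9.51 with shHDAC3#2 and 8.62 and 8.78 with shHDAC3#1, against 8.64 and 8.59 with shLuc, so shHDAC3#1 overlapped shLuc. HSPA14 fell by 0.52 in the DNMT1 knockdown, DNAJB6 fell by 0.55 in the HDAC3 knockdown, and BAG4, an HSP70 cochaperone of the BAG family, fell by 0.48 and 0.35. HSPA4, a relative of HSPH1, changed by -0.23 and -0.21 (adjusted p = 0.10 and 0.14), and BAG3, a stress-induced HSP70 cochaperone, by -0.29 and -0.32 (adjusted p = 0.070 and 0.054).

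Of 12 genes of the cytosolic chaperonin TRiC and of prefoldin, which fold actin and tubulin, 6 fell and 0 rose in the DNMT1 knockdown and 3 fell and 0 rose in the HDAC3 knockdown in limma, with 0 higher in either at an unadjusted p under 0.05. With so few of all genes called higher, a count of 0 higher among 12 is not a result about the list. The counts differed between hairpins. Called lower were 8 with shDNMT1#2, 0 with shDNMT1#1 in limma (1 at an unadjusted p under 0.05), 2 with shHDAC3#2 and 5 with shHDAC3#1. Over all genes the shares called lower were 15.2%, 6.81%, 9.54% and 16.6% in the same order. The median change was -0.35 with shDNMT1#2 and -0.03 with shDNMT1#1. The direction of the calls depended on the scaling: after a further quantile normalization 2 fell and 2 rose in the DNMT1 knockdown, and 0 fell and 3 rose in the HDAC3 knockdown in limma (1 lower at an unadjusted p under 0.05). In that setting 21.6% and 22.3% of all genes were called in either direction. The share of lower calls over all genes dropped there too, as given in the closing section. CCT3 (-0.51) and VBP1 (-0.46) had the largest falls in the DNMT1 knockdown, and VBP1 (-0.37) and CCT5 (-0.30) in the HDAC3 knockdown. CCT3 read 9.11 and 9.18 with shDNMT1#2 and 10.39 and 10.36 with shDNMT1#1, against 10.23 and 10.30 with shLuc. Its fall thus came from shDNMT1#2 alone, and shDNMT1#1 lay above shLuc. None of 8 other small heat shock protein genes was called in either knockdown in limma (1 in the DNMT1 and 2 in the HDAC3 knockdown at an unadjusted p under 0.05), and their medians were 0.13 in both; 1 was called higher in each knockdown after a further quantile normalization, and HSPB7 was called higher with shDNMT1#2 alone (0.37, adjusted p = 0.0100). Of 4 other heat shock factor genes and partners, HSBP1, which binds HSF1, fell by 0.32 in the DNMT1 knockdown (adjusted p = 0.015), a call that was lost after a further quantile normalization (-0.15, adjusted p = 0.17) and whose sign turned without probe sets that can match several transcripts (0.16, at a mean of 6.06). In this list 0 were called in the HDAC3 knockdown in limma (0 at an unadjusted p under 0.05).

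**Figure D5:**
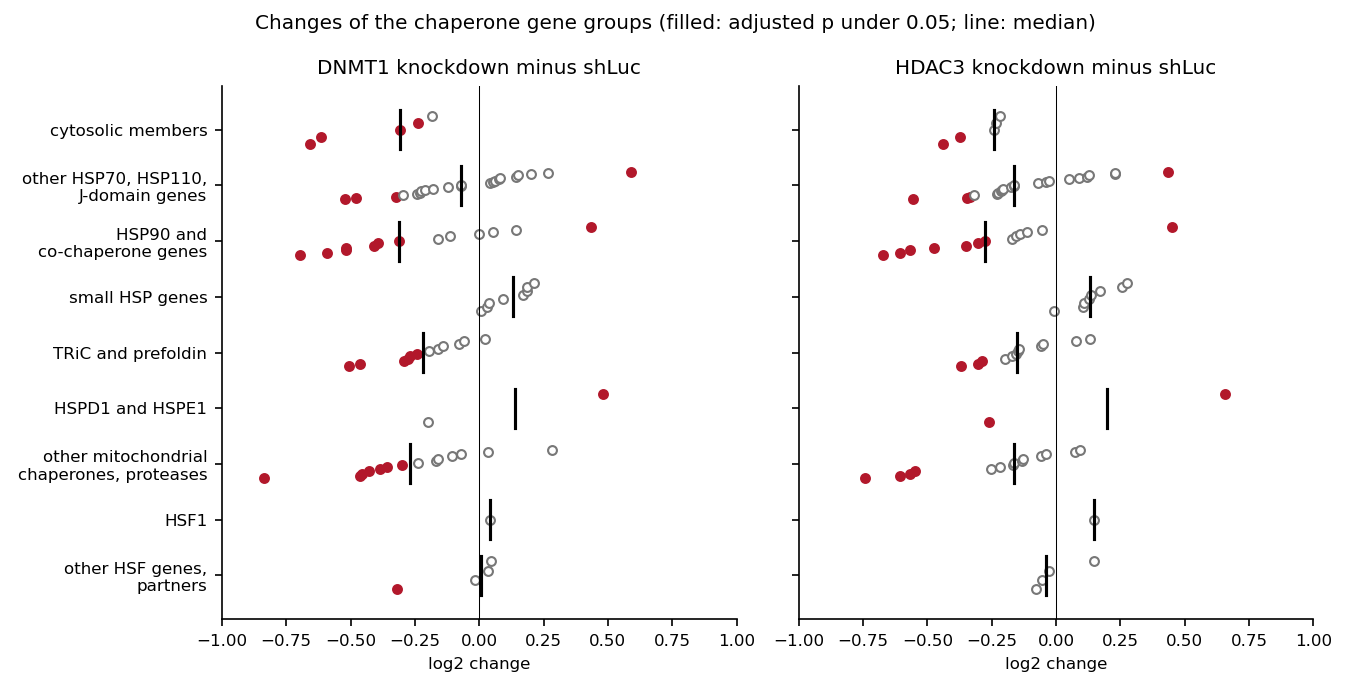
Log2 change of every measured gene of the chaperone groups, with the DNMT1 knockdown on the left and the HDAC3 knockdown on the right; filled points have an adjusted p under 0.05 and the vertical strokes are medians. The HSP90 and co-chaperone group held 7 lower and 1 higher called gene in each panel, and HSPE1 was the 1 mitochondrial gene called higher.

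Other genes of mitochondrial chaperones and proteases were called lower or not called in both knockdowns. Of 14 measured, 7 fell and 0 rose in the DNMT1 knockdown and 4 fell and 0 rose in the HDAC3 knockdown in limma, with 1 and 0 higher at an unadjusted p under 0.05, and the medians were -0.27 and -0.17. At the share of all genes called higher, under 1 of 14 would be, so the absence of higher calls is not a result about the list. The number called lower differed between hairpins, with 8 for shDNMT1#2, 2 for shDNMT1#1, 1 for shHDAC3#2 and 7 for shHDAC3#1. Beside these stand 15.2%, 6.81%, 9.54% and 16.6% of all genes called lower. With shDNMT1#2 alone CLPB, a disaggregase of the space between the mitochondrial membranes, was called higher, by 0.46. After a further quantile normalization 3 fell in the DNMT1 and 4 in the HDAC3 knockdown, and 0 rose in either in limma (2 and 0 higher at an unadjusted p under 0.05). The medians were then -0.15 and -0.08. Of all genes, 21.6% and 22.3% were called in either direction in that setting. HSPA9, the mitochondrial HSP70, read 9.04 and 8.86 with shDNMT1#2, 9.21 and 9.05 with shDNMT1#1, 9.21 and 9.34 with shHDAC3#2 and 9.32 and 9.50 with shHDAC3#1, against 9.54 and 9.47 with shLuc. The DNMT1 arrays were all below shLuc and shHDAC3#1 overlapped it; HSPA9 fell by 0.46 in the DNMT1 knockdown (adjusted p = 0.00039) and changed by -0.16 in the HDAC3 knockdown (adjusted p = 0.19), where the further quantile normalization gave 0.12. TRAP1, the mitochondrial HSP90, fell by 0.36 in the DNMT1 knockdown (adjusted p = 0.0031) and changed by -0.13 in the HDAC3 knockdown (adjusted p = 0.27), where its hairpins lay on either side of shLuc. GRPEL2, an exchange factor of HSPA9, fell by 0.84 in the DNMT1 knockdown, and the proteases YME1L1 and LONP1 fell by 0.74 and 0.61 in the HDAC3 knockdown. GRPEL2 was called with shDNMT1#2 (-1.33) and not with shDNMT1#1. LONP1 was called with shHDAC3#1 (-0.92) and not with shHDAC3#2. YME1L1 stood at 8.15 and 8.18 with shHDAC3#1 and at 9.30 and 9.39 with shHDAC3#2, beside 9.55 and 9.44 with shLuc, far below shLuc with shHDAC3#1 and just below it with shHDAC3#2.

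The genes whose signals followed a member most closely over the 10 arrays were found by Pearson's r among 3688 or 3689 genes with a mean of at least 6 and an SD of at least 0.2. The points are 5 groups of 2 arrays, so r mostly ranks group means and is given as a description. RRP1B (r = 0.953), RNF149 (0.929) and CHRM3 (0.922) were nearest to HSPE1. MRPL30 (0.931), CRKL (0.926) and POLD2 (0.924) were nearest to HSPD1, and GPX4 (0.907), ZBTB18 (0.905) and PNPLA6 (0.892) to HSF1.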

How the data were processed

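RNA of 10 samples of MM.1S cells was read on Affymetrix 3′ expression arrays. The authors deposited log2 signals for 54675 probe sets, made with RMA (background correction, quantile normalization and summary of each probe set), per the submitters' processing notes; the RMA version was not given in the sources used here, and the log2 scale was read from the values, which ran from 1.78 to 14.39. Genes were named through the platform annotation, matched to RefSeq of GRCh38.p14 by gene ID: 41097 probe sets have 1 symbol, 1801 several and 11777 none, and 41043 of the first kind matched. Each of 19775 genes was read through its single-symbol probe set with the highest mean of 10 arrays; 10523 genes had several. RMA understates changes near background, and the number of arrays limits the precision.

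The 5 groups entered 1 model in limma 3.58.1 (R 4.3.3; lmFit, eBayes with a trend), with 5 residual degrees of freedom, two-sided tests and Benjamini-Hochberg adjustment over all genes. A knockdown is the mean of 2 hairpins; the error leaves out variation between hairpins. The members and lists were chosen with earlier results of these data known. Named genes are the members, both targets, HSP90AB1, HSPA9, TRAP1, HSPA4 and BAG3 (HSF2 was not measured), and up to 2 called rises and 2 called falls of each list and knockdown. The alternatives, listed with their effect in the closing section, were a filter on dim genes, other choices of probe set, scaling, variance model, hairpin handling and covariates, a replicate block, and each array left out.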

Additional observations from a re-analysis of the deposited data

Results flagged for a closer look

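Tests of a difference between 2 knockdowns or between 2 hairpins of a target, all in the limma model over 19775 genes, passed for 11 results on the members. Between the DNMT1 and the HDAC3 knockdown they were HSPH1 (log2 difference -0.28, adjusted p = 0.0057), DNAJB1 (-0.37, adjusted p = 0.0013) and HSPB1 (0.25, adjusted p = 0.017). Between shHDAC3#2 and shHDAC3#1 they were HSPH1 (0.38, adjusted p = 0.0057), DNAJA1 (0.33, adjusted p = 0.037) and HSPD1 (0.29, adjusted p = 0.023). Between shDNMT1#2 and shDNMT1#1 they were HSPH1 (-0.39, adjusted p = 0.0059), DNAJA1 (-0.38, adjusted p = 0.017), HSPB1 (-0.60, adjusted p = 0.00012), HSP90AA1 (-0.35, adjusted p = 0.012) and HSF1 (-0.40, adjusted p = 0.0099). HSPH1 and DNAJA1 differed between hairpins of both targets. In both, the lower hairpin was the one with more genes called over the array, shDNMT1#2 (26.8% of genes) and shHDAC3#1 (24.4%).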

How the results depend on the processing

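The limits are few arrays, 1 cell line, hairpins that differ and probe sets shared with related transcripts; dim probe sets have little signal over background. The cause of each move below was not tested unless the setting's own construction gives it. In the order DNMT1 knockdown, HDAC3 knockdown, DNMT1 against HDAC3 knockdown, shDNMT1#2 against shDNMT1#1 and shHDAC3#2 against shHDAC3#1, leaving out each array gave 3 to 6, 3 to 6, 1 to 3, 2 to 6 and 0 to 4 members called, against 5, 4, 3, 5 and 3. For single hairpins against shLuc it gave 5 to 6 (shDNMT1#2), 2 to 4 (shDNMT1#1), 1 to 2 (shHDAC3#2) and 4 to 7 (shHDAC3#1). The mitochondrial minus cytosolic mean ranged over 0.46 to 0.62 in the DNMT1 and 0.42 to 0.58 in the HDAC3 knockdown. With the replicate block, 4 members were called in the DNMT1 and 4 in the HDAC3 knockdown, and HSP90AA1 left the DNMT1 calls (adjusted p = 0.0528, alternatives 0.00994 to 0.932); replicate numbers did not pair the arrays (correlations of -0.343 to 0.266 between groups).

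Counts of called members that moved by over 1.5 times were as follows. Without probe sets that can cross-hybridize, 5 members stayed measured, and 0 were called in both knockdowns, between the HDAC3 hairpins and with shDNMT1#1, shHDAC3#2 and shHDAC3#1 in limma (at most 1 at an unadjusted p under 0.05), 1 between the knockdowns, 2 between the DNMT1 hairpins and 1 with shDNMT1#2. Over these comparisons 6.46% to 23.5% of all genes were called in this setting. The mitochondrial minus cytosolic mean was 0.35 in the DNMT1 and 0.15 in the HDAC3 knockdown. With probe sets averaged per gene, 3 were called between the DNMT1 and 1 between the HDAC3 hairpins. With median centring, 7 were called in the HDAC3 knockdown; with a further quantile normalization, 1 with shHDAC3#2; without the trend, 1 between the HDAC3 hairpins. With both hairpins as 1 group, 1 was called in each knockdown and 0 between them (1 unadjusted), and with hairpin as a random block 0 in each of the 3 (3, 2 and 1 unadjusted, in limma). With the ACTB covariate, 0 were called between the knockdowns (3 unadjusted), 0 between the HDAC3 hairpins (2 unadjusted) and 1 with shHDAC3#1. With the array SD covariate, 1 was called in each knockdown, 1 between the HDAC3 hairpins, 0 between the DNMT1 hairpins (3 unadjusted), 0 with shDNMT1#2 (2 unadjusted), 1 with shHDAC3#2 and 1 with shHDAC3#1, and the class difference was 0.41 in the DNMT1 and 0.38 in the HDAC3 knockdown. The hairpin settings have no value for single hairpins.

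Signs turned in 52 cases. With the array SD covariate, the DNMT1 knockdown had BAG3 at 0.26, DNAJA1 at 0.20, HSBP1 at 0.051, HSP90AB1 at 0.16, HSPA4 at 0.14 and HSPB1 at 0.041. There the HDAC3 knockdown had BAG3 at 0.21, BAG4 at 0.035, DNAJA1 at 0.25, HSP90AB1 at 0.016, HSPA4 at 0.15, HSPA9 at 0.23, TRAP1 at 0.16 and VBP1 at 0.067. DNAJA1 was at 0.10 and HSPE1 at 0.16 between the DNMT1 hairpins, and DNAJA1 at 0.25 with shDNMT1#2 and 0.20 with shHDAC3#1. Without cross-hybridizing probe sets, the DNMT1 knockdown had HSBP1 at 0.16, HSPA4 at 0.29 and HSPD1 at 0.18, and the HDAC3 knockdown DNAJA1 at 0.16, HSPA4 at 0.056 and HSPD1 at 0.17. HSPH1 was then at 0.23 between the DNMT1 hairpins and -0.17 between the HDAC3 hairpins, DNAJA1 at -0.022 between the HDAC3 hairpins, and DNAJA1, HSPD1 and HSPH1 at 0.17, 0.17 and 0.079 with shHDAC3#1.

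After a further quantile normalization HSP90AB1 was at 0.12 in the DNMT1 and 0.030 in the HDAC3 knockdown, DNAJA1 at 0.050, HSPA9 at 0.12 and TRAP1 at 0.10 in the HDAC3 knockdown, HSPE1 at 0.19 between the DNMT1 hairpins and HSF1 at -0.0016 between the HDAC3 hairpins. With median centring HSF1 was at -0.015 in the DNMT1 knockdown and HSPD1 at -0.0055 between the DNMT1 hairpins. With the ACTB covariate DNAJA1 was at 0.026 and HSPD1 at -0.038 between the knockdowns, HSF1 at -0.25 and HSP90AA1 at -0.078 between the HDAC3 hairpins, and HSP90AB1 at 0.0009 in the DNMT1 knockdown. Leaving out each array turned the sign within the ranges of HSPD1 (-0.057 to 0.10) and HSPE1 (-0.134 to 0.036) between the DNMT1 hairpins, HSF1 (-0.011 to 0.092) and HSP90AB1 (-0.029 to 0.025) in the DNMT1 knockdown, and HSP90AA1 (-0.086 to 0.048) between the knockdowns. Over all genes, the share of called genes that were lower was 67.0% in the DNMT1 and 79.4% in the HDAC3 knockdown, against 53.8% and 55.6% after quantile normalization and 85.4% and 88.7% after median centring.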

Other observations

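Probe sets that list a heat shock gene beside others were left out of the results and are given here as probe sets, without a test. The 4 that list HSPA8, the constitutive HSP70, together with the small nucleolar RNA genes SNORD14C and SNORD14D in its introns changed by -0.56 to -0.43 with shDNMT1#2 relative to shLuc. With the other 3 hairpins they changed by -0.23 to 0.03. The brightest of them had 11.07 and 11.03 with shDNMT1#2, 11.55 and 11.36 with shDNMT1#1, 11.41 and 11.51 with shHDAC3#2 and 11.49 and 11.61 with shHDAC3#1, against 11.53 and 11.57 with shLuc. The brightest probe set of HSPA1A and HSPA1B, the stress-induced HSP70 genes, had 8.06 and 8.17 with shDNMT1#2, 8.03 and 7.74 with shDNMT1#1, 7.90 and 7.93 with shHDAC3#2 and 7.62 and 7.94 with shHDAC3#1, against 8.23 and 8.04 with shLuc. Its change was -0.14 in the DNMT1 knockdown and -0.29 in the HDAC3 knockdown, and the other probe sets of these genes, one of which also lists HSPA1L, changed by 0.12 to 0.14 and by -0.14 to 0.05.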
